A study of Mus musculus with 13 samples.

Results

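The genes described here are 8 genes of cholesterol synthesis, 7 enzymes and 1 regulator of the pathway, taken from a list of symbols matched to the identifiers of a count table of mouse genes. All 8 of the 8 listed genes were found among the 27071 genes of the table, and all 8 were among the 10714 genes that passed the filter on low counts. The list holds Hmgcs1, Idi1, Fdps, Fdft1, Sqle, Lss and Cyp51, which encode enzymes, and Insig1, which encodes a sterol-sensing retention protein and is no enzyme.

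The libraries came from a pull-down experiment with dAKAP1, a protein of the outer mitochondrial membrane that anchors protein kinase A and binds RNA. The bait was a purified fragment that spans the KH domain and the Tudor domain (KHT), and it met total RNA from MA-10, a steroid-producing mouse line derived from a Leydig cell tumour. Bait and bound RNA were then collected with an anti-MBP antibody. There were 4 KHT libraries, 5 negative control libraries (NEG) whose bait was empty beads, MBP alone or a protein named KHT(GDDG), and 4 libraries of the untreated input RNA (IPT). No label ties a given NEG library to 1 of these baits. For KHT the labels differ among themselves: the titles and treatments name KHT, but the free-text description is that of a negative control. The titles were followed here. The bait was added to RNA already extracted, so the RNA met it outside the cell. All groups share 1 cell line, grown in the same medium with horse serum. No drug, genotype or time differed between the groups. The labels do not say that the libraries came from separate cultures, so p-values measure the spread between these libraries alone, which may be technical. The NEG libraries may differ in bait, so spread within NEG, in p-values and SD alike, cannot be told apart from differences of bait. In bulk RNA, fewer cells of a type and less RNA per cell cannot be told apart.

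NEG 2 held 0 counts and entered no value, which left 4 libraries per group. Total estimated counts ran from 1162178 to 1618998 in NEG, 1955446 to 3689792 in KHT and 2487679 to 3085423 in IPT. In NEG, 9 features took 96.0% to 98.1% of all counts, which left 31318 to 49062 counts for every other gene, while every KHT and IPT library had 929348 or more. All 12 Leydig cell markers examined were tested, with summed levels of 391 to 602 CPM (counts relative to the scaled library total) in KHT and 388 to 708 in IPT. The Sertoli cell markers summed to 3.73 to 8.68 CPM in KHT and 4.02 to 7.95 in IPT, and the germ cell markers to at most 3.73 CPM. The macrophage, endothelial and peritubular markers summed to 14.4 to 22.9 CPM in KHT, 13.1 to 28.0 CPM in IPT and 28.6 to 163 CPM in NEG. Most of the NEG sum was Pecam1, an endothelial adhesion molecule, at 149, 145 and 134 CPM in NEG 1, 3 and 4 and 20.4 CPM in NEG 5. In NEG the Leydig markers summed to 8.49 to 441 CPM, the Sertoli markers to at most 8.17 CPM and the germ cell markers to 0. The part of these markers in the results was not tested.

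KHT 1, KHT 2 and IPT 1 stood apart from the other 5 KHT and IPT libraries. This division is in no label. It was seen in earlier results of these data, in genes of the amino acid stress response. All 12 of these genes were higher in these 3 libraries than in any of the other 5, beside 14.6% of all genes tested. The division was seen in these genes, so they are no support for it. Their summed level was 960.5 to 1044 CPM in the 3 libraries and 322 to 476 CPM in the other 5. The division is therefore described here by values and ranges, with no mean and no test, and results that rest on these libraries are given with and without them.

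Cholesterol is built from acetyl-CoA in a long chain of steps. The early steps make mevalonate and then isoprenoid units, farnesyl diphosphate is the branch point to other products, and the steps from squalene onward make sterols alone. Transcription of the whole chain is driven by the SREBP factors, chiefly SREBP-2, which leave the endoplasmic reticulum with their escort Scap when sterols are low and are held back there by Insig proteins when sterols are high. Leydig cells use cholesterol as the starting material of testosterone, taking it from lipoproteins, from stored esters and from their own synthesis.

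SREBP factors act at sterol regulatory elements in promoters, usually beside the CCAAT box bound by the factor NF-Y. The promoters of the listed genes are shown as background to the pathway. The part of their motifs in the levels described further on was not tested. RefSeq's promoter table for GRCm38.p6 matched 5 of the 8 genes, with windows that end 50 bases after the start used in that table. Motifs were searched on both strands, so a CCAAT box on the other strand reads ATTGG. The motif CCAAT occurred in 5 of these 5 windows and in 37.4% of the 32851 windows of the table. The core CACNCCAC of the sterol regulatory element occurred in 2 of 5, Hmgcs1 and Insig1, and in 6.24% of all windows. The full sterol regulatory element, of which this core is a part, occurred in 0 of 5 and in 0.234% of all windows. These are matches of letters, not sites at which binding was measured. The stretches below run 5′ to 3′ up to the base before the start used in the promoter table, with matches to these motifs in capitals. For Lss that start lies inside the annotated gene, which begins at 76531565, so its stretch runs past the gene start. Hmgcs1 lies at chr13:119690101-119690350 (plus strand), Insig1 at chr5:28071162-28071411 (plus), Cyp51 at chr5:4104698-4104797 (minus), Idi1 at chr13:8885506-8885605 (plus) and Lss at chr10:76531505-76531604 (plus).
Hmgcs1: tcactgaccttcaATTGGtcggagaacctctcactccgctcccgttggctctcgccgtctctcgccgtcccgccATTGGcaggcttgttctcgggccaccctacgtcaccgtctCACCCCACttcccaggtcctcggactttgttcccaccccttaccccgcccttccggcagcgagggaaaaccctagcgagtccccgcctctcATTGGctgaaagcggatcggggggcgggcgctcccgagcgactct
Insig1: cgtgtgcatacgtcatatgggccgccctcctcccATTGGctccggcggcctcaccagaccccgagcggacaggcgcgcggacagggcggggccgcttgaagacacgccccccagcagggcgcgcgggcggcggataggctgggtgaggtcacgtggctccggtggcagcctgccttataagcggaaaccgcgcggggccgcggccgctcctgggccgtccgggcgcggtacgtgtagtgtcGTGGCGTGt
Cyp51: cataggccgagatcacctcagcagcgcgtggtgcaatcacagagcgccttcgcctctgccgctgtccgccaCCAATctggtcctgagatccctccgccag
Idi1: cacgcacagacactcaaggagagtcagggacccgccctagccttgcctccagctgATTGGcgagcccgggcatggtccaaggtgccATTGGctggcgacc
Lss: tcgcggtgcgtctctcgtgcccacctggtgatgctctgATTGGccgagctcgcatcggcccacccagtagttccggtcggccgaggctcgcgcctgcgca

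Levels of each gene are given as CPM after TMM scaling, which aims to set libraries on a common scale through the genes they share. After it, the median log2 fold change over all genes tested was 0.01 for KHT over IPT but 1.73 for KHT over NEG. NEG libraries had counts in 2173 to 7047 features and KHT libraries in 16194 to 18532. The bulk of genes was thus not level between NEG and KHT, and NEG levels are less sure. Transcript lengths were not used here, so levels are compared between libraries of 1 gene and not between genes. Among the mevalonate and isoprenoid enzymes, Hmgcs1 is HMG-CoA synthase, which acts early in the chain (chromosome 13, 119690351 to 119708260, GRCm38). Its level was 75.9, 69.4, 169.6 and 150.3 CPM in KHT 1 to 4 and 83.4, 174, 165 and 193 CPM in IPT 1 to 4. It was high in KHT 3, KHT 4 and IPT 2 to 4 and lower in KHT 1, KHT 2 and IPT 1. In NEG it had 0, 2, 0 and 28 counts in NEG 1, 3, 4 and 5. Group means were 116 ± 51.1 CPM in KHT, 154 ± 48.4 in IPT and 31.6 ± 55.5 in NEG (SD, n = 4 each).

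Idi1 interconverts the pair of 5-carbon isoprenoid units (chromosome 13, 8885606 to 8892396). It stood at 38.9, 32.4, 91.3 and 85.9 CPM in KHT 1 to 4 and at 38.7, 73.8, 101 and 88.1 CPM in IPT 1 to 4. The same 3 libraries were low. NEG 1, 3, 4 and 5 had 0, 3, 5 and 16 counts. The means were 62.1 ± 30.8 CPM in KHT, 75.4 ± 26.9 in IPT and 29.2 ± 27.7 in NEG (SD, n = 4 each).

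Fdps makes farnesyl diphosphate at the branch point (chromosome 3, 89093588 to 89101967). Its level was 65.4, 59.4, 64.4 and 65.6 CPM in KHT 1 to 4 and 57.7, 73.0, 75.2 and 77.6 CPM in IPT 1 to 4. KHT 1 lay above KHT 3, and the 3 libraries that stood apart overlapped the other 5. Its coefficient of variation was 4.59% in KHT and 12.6% in IPT, against 25.3% to 50.9% in KHT and 14.7% to 36.6% in IPT for the other 7 genes. NEG 1, 3, 4 and 5 had 0, 6, 0 and 33 counts, and NEG 5 at 135 CPM was the highest of all libraries. The means were 63.7 ± 2.92 CPM in KHT, 70.9 ± 8.96 in IPT and 42.7 ± 63.7 in NEG (SD, n = 4 each).

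The sterol branch opens with Fdft1, squalene synthase (chromosome 14, 63145150 to 63181687). Its level was 20.2, 27.2, 35.1 and 36.3 CPM in KHT 1 to 4 and 26.7, 34.1, 36.5 and 28.4 CPM in IPT 1 to 4. KHT 2, the highest of the 3 libraries that stood apart, lay just below IPT 4, the lowest of the other 5. Its 6 NEG counts were all in NEG 5. Its means were 29.7 ± 7.50 CPM in KHT, 31.4 ± 4.61 in IPT and 6.13 ± 12.3 in NEG (SD, n = 4 each). The annotated gene overlaps Ctsb. The library kit marks strand, but no source used here says whether the counting used it.

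Sqle, squalene epoxidase, carries out the first oxygen-dependent step (chromosome 15, 59315092 to 59331193). It stood at 52.9, 48.6, 84.1 and 83.9 CPM in KHT 1 to 4 and at 56.0, 78.2, 78.9 and 84.6 CPM in IPT 1 to 4. The low libraries were again KHT 1, KHT 2 and IPT 1. Its 7 NEG counts were all in NEG 5. Means were 67.4 ± 19.3 CPM in KHT, 74.4 ± 12.6 in IPT and 7.15 ± 14.3 in NEG (SD, n = 4 each).

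Lss, lanosterol synthase, closes the ring system (chromosome 10, 76531565 to 76557139). It was at 22.3, 20.1, 37.9 and 30.5 CPM in KHT 1 to 4 and at 18.0, 26.3, 41.4 and 30.3 CPM in IPT 1 to 4. IPT 2 was the lowest of the 5 libraries above the other 3. Its 4 NEG counts were all in NEG 5. Means were 27.7 ± 8.17 CPM in KHT, 29.0 ± 9.72 in IPT and 4.09 ± 8.17 in NEG (SD, n = 4 each). The annotation places the long noncoding RNA 4930483K19Rik across part of Lss.

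Cyp51, lanosterol demethylase, is the cytochrome P450 enzyme of the chain (chromosome 5, 4080674 to 4104697). Its level was 50.7, 42.5, 113 and 105 CPM in KHT 1 to 4 and 43.7, 94.3, 113 and 92.3 CPM in IPT 1 to 4. The 5 higher libraries all lay above 92 CPM and the 3 lower ones below 51 CPM. NEG 1, 3, 4 and 5 had 0, 2, 1 and 18 counts. Means were 77.7 ± 36.2 CPM in KHT, 85.9 ± 29.7 in IPT and 23.1 ± 34.0 in NEG (SD, n = 4 each).

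Insig1, which holds the SREBP escort Scap in the endoplasmic reticulum and is itself a target of SREBP, lies on chromosome 5 (28071412 to 28078662), inside the annotated long noncoding RNA Gm35223. Its level was 20.2, 18.5, 51.7 and 47.4 CPM in KHT 1 to 4 and 17.6, 40.9, 48.3 and 44.5 CPM in IPT 1 to 4. Of the 8 genes it had the widest gap between the 2 sets of libraries, with the lowest of the 5 at 2.02 times the highest of the 3. NEG 1, 3, 4 and 5 had 0, 2, 0 and 7 counts. Means were 34.5 ± 17.6 CPM in KHT, 37.8 ± 13.8 in IPT and 10.2 ± 13.5 in NEG (SD, n = 4 each). For all 8 genes the mean was highest in IPT, next in KHT and lowest in NEG, but KHT and IPT did not differ beyond their spread in any of them.

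**Figure D1:**
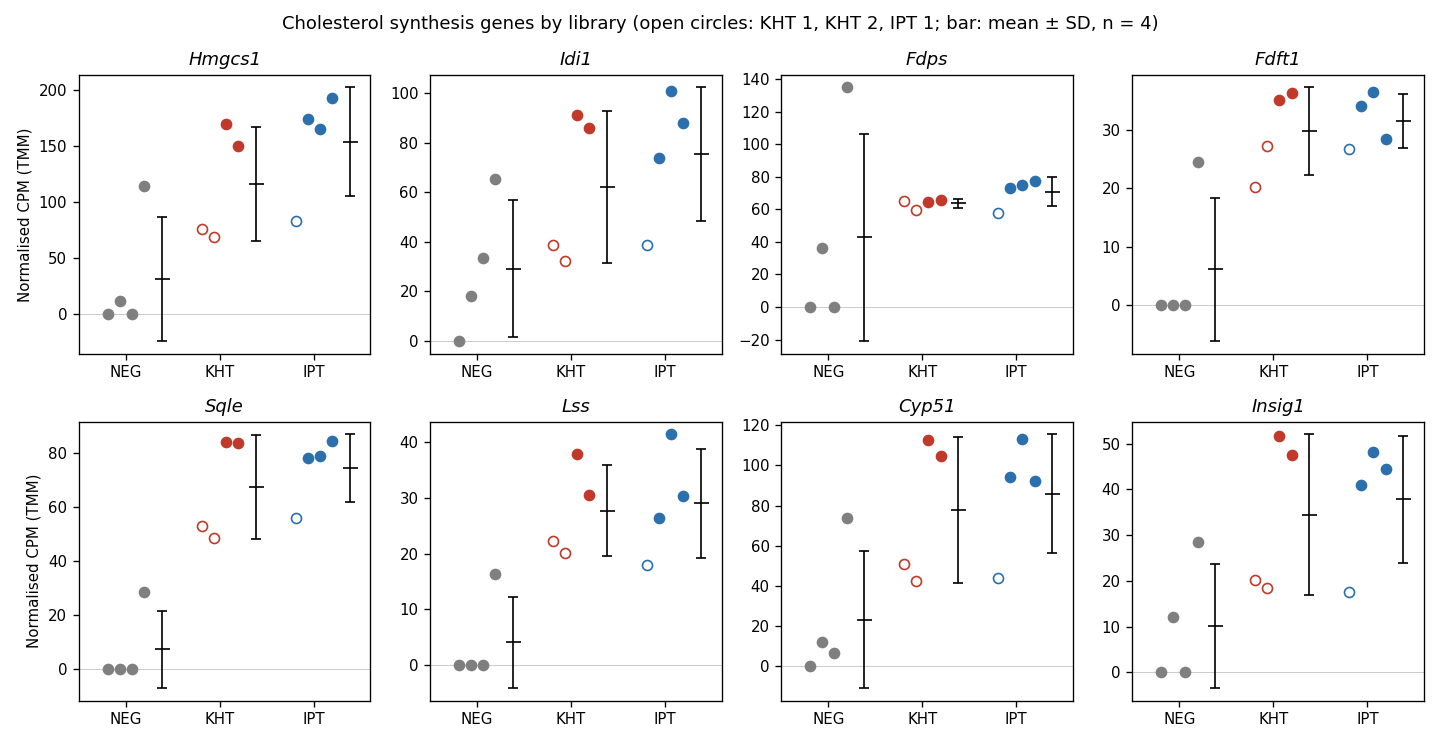
Level of each of the 8 genes in normalised CPM (vertical axis, linear) in the 4 NEG, 4 KHT and 4 IPT libraries with counts. Each circle is 1 library in the order of its number, open circles are KHT 1, KHT 2 and IPT 1, and the bar is the mean ± SD (n = 4). In NEG the highest circle of each gene is NEG 5, and in KHT and IPT the open circles lie lowest in all genes but Fdps.

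The comparison of KHT with IPT asks which RNAs the bait held in other proportions than they had in the input. None of the 8 genes was called. The log2 fold changes of KHT over IPT were -0.40 for Hmgcs1, -0.28 for Idi1, -0.15 for Fdps, -0.08 for Fdft1, -0.14 for Sqle, -0.06 for Lss, -0.14 for Cyp51 and -0.13 for Insig1. Their median was -0.14, beside 0.01 over all genes tested. In edgeR's quasi-likelihood test the adjusted p was 1.0 for each of them, and 0 of the 8 had an unadjusted p under 0.05. DESeq2 and limma voom also called 0 of 8. Over all genes, edgeR called 1 of 10714 higher in KHT (0.00933%) and 0 lower (0.0%), so the members' 0 of 8 is no different from the background.

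The intervals show what this comparison could have seen. The 95% interval of the log2 difference ran from -0.84 to 0.72 for Lss, the narrowest, and from -2.11 to 1.30 for Hmgcs1, the widest. A change of 2-fold, a log2 value of 1, lay inside the interval of Hmgcs1, Sqle, Cyp51 and Fdps in both directions. It lay outside that of Lss and Fdft1, whose interval ran from -0.89 to 0.72. KHT holds 2 of the 3 libraries that stood apart and IPT holds 1. Without those 3 libraries, 6 of the 8 fold changes were above 0, from 0.02 for Idi1 to 0.16 for Insig1. Fdps (-0.21) and Hmgcs1 (-0.15) stayed below 0, and 0 of 8 were called in edgeR (adjusted p = 1.0 for each), where 0.0927% of all genes in that fit were called higher and 0.0464% lower. Within the 3 libraries, IPT 1 lay between KHT 1 and KHT 2 for Fdft1 and Cyp51, above both for Hmgcs1 and Sqle, and below both for Fdps, Lss and Insig1. For Idi1 it lay between them, at 38.7 CPM beside 38.9 in KHT 1.

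**Figure D2:**
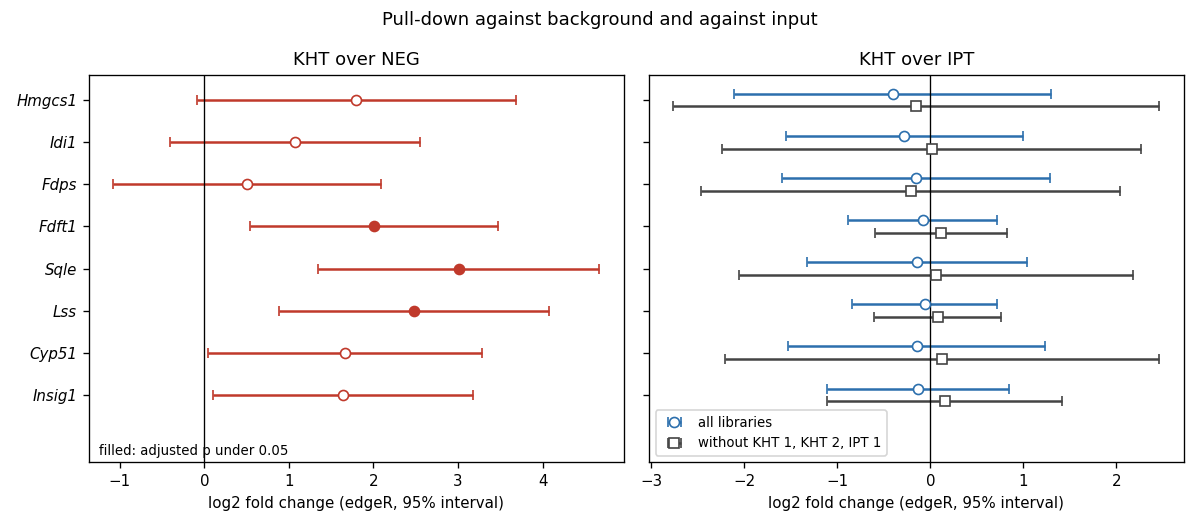
Log2 fold change of each gene (horizontal axis) with its 95% interval from edgeR, for KHT over NEG on the left and KHT over IPT on the right. Filled symbols on the left have an adjusted p under 0.05 (Fdft1, Sqle, Lss). On the right, circles use all libraries and squares leave out KHT 1, KHT 2 and IPT 1, and every interval spans 0.

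KHT was set against NEG to ask which RNAs exceeded the background of the pull-down. Sqle, Lss and Fdft1, all of the sterol branch, were higher in KHT, and no member was lower. Sqle rose by 3.01 on the log2 scale (SE 0.80, edgeR adjusted p = 0.0107), Lss by 2.48 (SE 0.77, edgeR adjusted p = 0.0208) and Fdft1 by 2.01 (SE 0.71, edgeR adjusted p = 0.0352). These are the 3 genes whose NEG counts lay in NEG 5 alone. The other 5 did not pass in edgeR. Their log2 fold changes were 1.64 for Insig1 (adjusted p = 0.0854), 1.66 for Cyp51 (0.0946), 1.79 for Hmgcs1 (0.118), 1.07 for Idi1 (0.221) and 0.51 for Fdps (0.595). So 3 of 8 were called higher, where 31.0% of all genes tested were, and 0 of 8 lower, where 2.72% were. Both shares are near those of all genes. The median log2 fold change of the 8 was 1.73, and that of all genes tested was also 1.73.

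The number of members that passed changed most with NEG 5. The bait of NEG 5 is not labelled, so a difference of bait there cannot be told apart from other spread between libraries. NEG 5 held 119 of the 140 NEG counts of the 8 genes, and all 8 genes had counts in it. NEG 1 had none, NEG 3 had counts for 5 genes and NEG 4 for 2. Without NEG 5, 8 of 8 were called higher in KHT, with edgeR adjusted p-values from 0.000229 (Sqle) to 0.0367 (Idi1). In that fit 47.2% of all genes were called higher. Without NEG 1, NEG 3 or NEG 4, 1 of 8 was called each time, beside 15.0%, 21.6% and 20.9% of all genes, and Sqle was the gene that passed. Fdft1 also did not pass without KHT 3 (edgeR adjusted p = 0.0597) or KHT 4 (0.0570). Leaving out KHT 1, KHT 2 and IPT 1 gave 4 of 8, with Insig1 added (2.17, edgeR adjusted p = 0.0463), beside 21.7% of all genes. With total counts as the scale, 8 of 8 were called, from 4.31 for Fdps to 6.87 for Sqle, but so were 97.3% of all genes, so that count says nothing of the members. DESeq2 called 5 of 8 and 43.2% of all genes. In all 23 alternative settings the fold change of each of the 8 genes stayed above 0.

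The share of the 8 genes in all counts outside the 9 dominant features sets NEG 5 beside the other libraries without any scaling factor. In NEG 5 it was 0.243% (119 of 49062 counts, exact 95% interval 0.201% to 0.290%). In NEG 3 it was 0.0382% (0.0214% to 0.0629%), in NEG 4 0.0173% (0.00636% to 0.0377%) and in NEG 1 0 of 31318 counts, with an exact upper limit of 0.0118% (a count of 3 there would be 0.00958%). The share in KHT was 0.152%, 0.133%, 0.273% and 0.262% in KHT 1 to 4, and in IPT it was 0.146%, 0.258%, 0.287% and 0.273% in IPT 1 to 4. NEG 5 thus lay above KHT 1, KHT 2 and IPT 1, and NEG 1, 3 and 4 lay below every KHT and IPT library. By gene, NEG 5 lay within the range of the KHT libraries for Hmgcs1, Idi1, Fdft1, Cyp51 and Insig1, above it for Fdps and below it for Sqle (28.6 CPM) and Lss (16.3 CPM). Intervals cover counting error only, and would be too narrow if each read pair was counted by both its mates, which the sources do not settle.

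**Figure D3:**
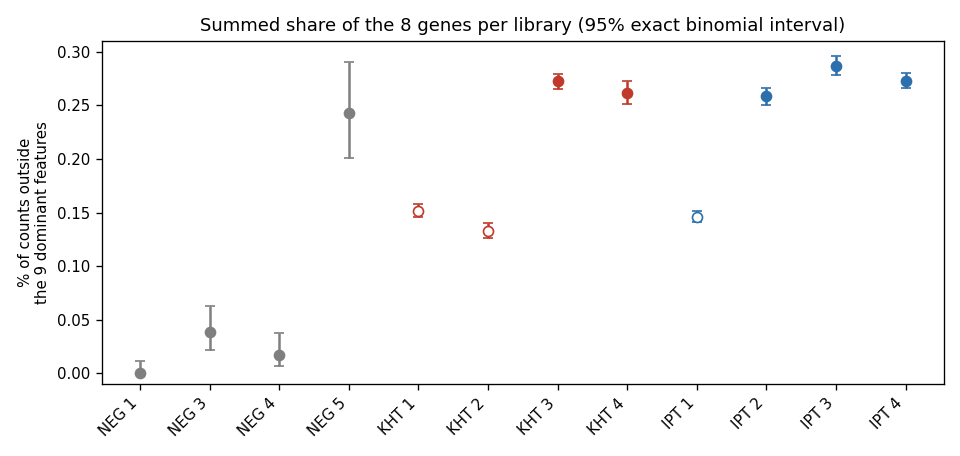
Counts of the 8 genes together as a percentage of counts outside the 9 dominant features (vertical axis), with the exact 95% binomial interval, for each of the 12 libraries. Open circles are KHT 1, KHT 2 and IPT 1. NEG 5 (0.243%) lies among the KHT and IPT libraries, and NEG 1, 3 and 4 lie at 0 to 0.0382%.

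NEG with IPT, which shares the NEG libraries with the comparison above and so is no second support for it, asks which RNAs the pull-down background lacked. Sqle (log2 fold change -3.15, edgeR adjusted p = 0.00791), Lss (-2.54, adjusted p = 0.0173) and Fdft1 (-2.09, adjusted p = 0.0277) were lower in NEG than in IPT. The other 5 ran from -2.20 for Hmgcs1 (edgeR adjusted p = 0.0627) to -0.66 for Fdps (0.480). So 3 of 8 were lower, where 32.5% of all genes tested were, and 0 of 8 higher, where 3.64% were. Without NEG 5, 8 of 8 were lower, beside 47.4% of all genes, and without NEG 1, 1 of 8, beside 15.6%. Fdft1 also did not pass without NEG 3 (edgeR adjusted p = 0.0741) or NEG 4 (0.0713).

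Across KHT and IPT, the members varied mainly between the 3 libraries that stood apart and the other 5. Hmgcs1, Idi1, Fdft1, Sqle, Lss, Cyp51 and Insig1 were lower in KHT 1, KHT 2 and IPT 1 than in any of the other 5 libraries, and Fdps overlapped. That is 7 of 8 without overlap, where 13.9% of all genes tested were lower in this way and 14.6% higher. The gap was widest for Insig1, Idi1 (lowest of the 5 at 1.90 times the highest of the 3), Cyp51 (1.82 times) and Hmgcs1 (1.80 times). It was smaller for Sqle (1.40 times) and Lss (1.18 times), and smallest for Fdft1 (1.05 times). With total counts as the scale, Fdft1 and Lss overlapped too, which left 5 of 8, beside 5.81% of all genes. With median-ratio size factors, or with counts outside the dominant features as the scale, the same 7 did not overlap.

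**Figure D4:**
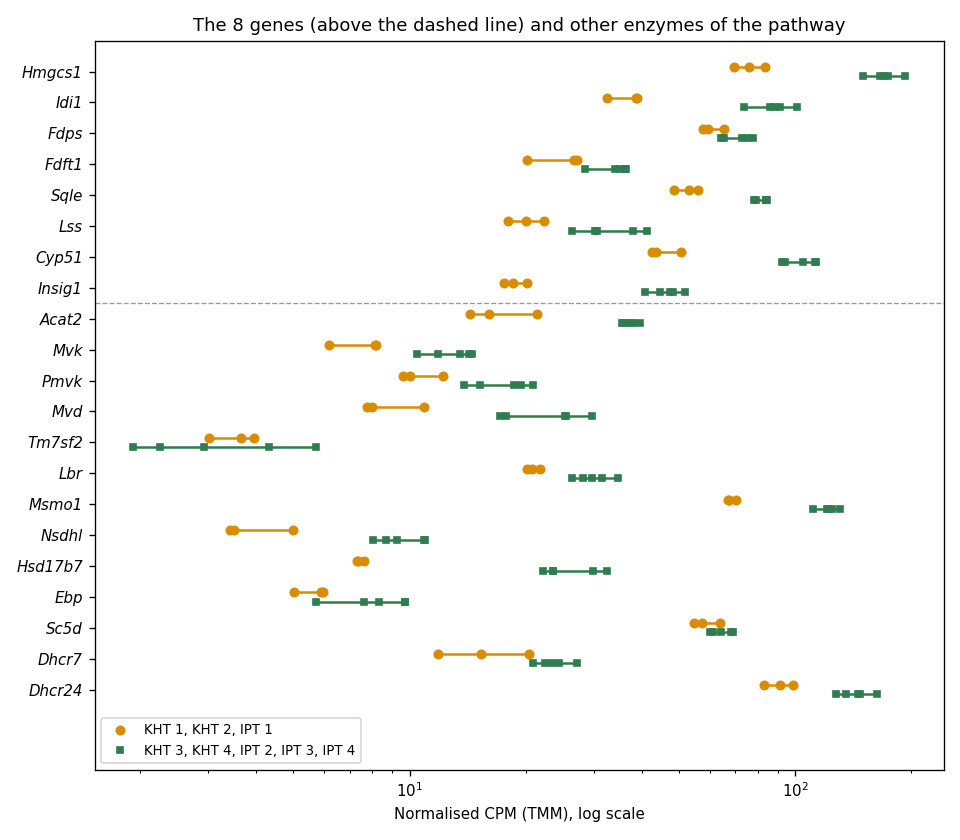
Normalised CPM (horizontal log axis) of the 8 genes, above the dashed line, and of 13 other enzymes of the pathway. Orange circles are KHT 1, KHT 2 and IPT 1, green squares the other 5 KHT and IPT libraries, and lines span each set. With this TMM scaling the sets do not overlap for 7 of the 8 genes (5 of 8 with total counts as the scale) and for 10 of the 13.

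Ratios of counts within a library need no scaling at all. The ratio of Hmgcs1 to Fdps counts was 1.16, 1.17 and 1.44 in KHT 1, KHT 2 and IPT 1 and 2.20 to 2.64 in the other 5. The ratio of Insig1 to Fdps was 0.304 to 0.312 in the 3 libraries and 0.560 to 0.804 in the other 5. They were not computed for all genes, so no background share stands beside the count that follows. Fdps itself overlapped between the sets of libraries, so these ratios are no second support for the division. Of the 7 genes, 6 had a lower ratio to Fdps in the 3 libraries without overlap. Fdft1 was the exception, with 0.309 to 0.463 in the 3 libraries and 0.367 to 0.553 in the other 5. The members thus did not move as 1 block: Fdps had the lowest coefficient of variation of the 8 in both KHT and IPT, and Fdft1 the next lowest.

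**Figure D5:**
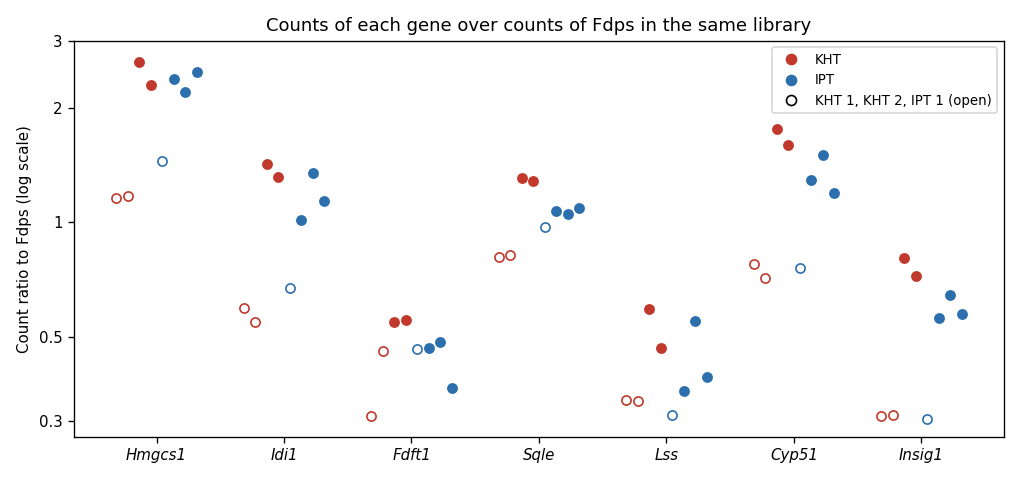
Counts of each of 7 genes divided by the counts of Fdps in the same library (vertical log axis), in the 4 KHT (red) and 4 IPT (blue) libraries. Open circles are KHT 1, KHT 2 and IPT 1. They lie below the filled circles for 6 of the 7 genes, and for Fdft1 they overlap. No share of all genes was computed for these ratios.

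Most of the other enzymes of the pathway were also lower in KHT 1, KHT 2 and IPT 1. Of 14 listed, 13 passed the filter, and 10 of these 13 were lower without overlap, beside 13.9% of all genes, and none was higher. With total counts as the scale 6 of 13 were lower, beside 5.81% of all genes, and none was higher. Dhcr7, Lbr and Mvk were among those that then overlapped. Dhcr7, which carries out the last step to cholesterol, was at 11.8 and 15.3 CPM in KHT 1 and KHT 2 and 20.3 CPM in IPT 1, and at 20.9 to 27.2 CPM in the other 5 libraries. Lbr, a sterol reductase of the nuclear envelope, was at 20.1 to 21.8 CPM against 26.3 to 34.7 CPM, and Mvk, mevalonate kinase, at 6.16 to 8.20 CPM against 10.4 to 14.5 CPM. Sc5d, a sterol desaturase, overlapped (54.6 to 63.7 CPM against 60.3 to 68.8 CPM), as did Ebp and Tm7sf2. None of the 13 was called for KHT with IPT. For KHT with NEG, 3 of 13 were called higher and none lower, with a median log2 fold change of 1.40. Here and in the gene groups that follow, these stand beside 31.0% of all genes higher, 2.72% lower and a median of 1.73. These included Sc5d (2.03, SE 0.62, edgeR adjusted p = 0.0202). The call of Sc5d ended without KHT 1, KHT 2 and IPT 1 (edgeR adjusted p = 0.105), with a fold change as large (2.10).

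Genes of sterol sensing and SREBP processing were divided. Of 20 tested, 4 were lower and 7 higher in the 3 libraries without overlap, and 9 overlapped. With total counts as the scale 2 were lower and 5 higher. Over all genes tested, 13.9% were lower in this way and 14.6% higher, or 5.81% and 11.2% with total counts. The same shares apply to the gene groups that follow. Srebf2, which encodes SREBP-2, was at 60.4 and 64.2 CPM in KHT 1 and KHT 2, 59.9 CPM in IPT 1 and 94.3 to 109 CPM in the other 5. Nfyc, a subunit of NF-Y, was also lower (8.93 to 11.8 CPM against 13.8 to 16.8 CPM), while the subunit Nfya was higher (22.8 to 23.9 CPM against 11.3 to 17.2 CPM). Mbtps2, the protease that makes the second cut of SREBP, was at 13.7 to 18.3 CPM against 5.22 to 8.13 CPM. Erlin1, a protein of the endoplasmic reticulum membrane, was at 24.9 to 27.3 CPM against 9.93 to 13.2 CPM. None of the 20 was called for KHT with IPT. For KHT with NEG, 12 were higher and none lower, with a median of 2.19. The median was 1.98 when genes without NEG counts are put at their lower bound. No median of this kind was computed over all genes, so it has no background beside it. Without KHT 1, KHT 2 and IPT 1 the count was 7, beside 21.7% of all genes in that fit. Mbtps1, the protease of the first cut, rose by 2.73 (SE 0.68, edgeR adjusted p = 0.00773). Nfyc, at 0 in NEG, was at least 3.16-fold higher, taking 3 counts summed over NEG as the floor (edgeR adjusted p = 0.00731). That floor covers counting error only, and would be too low if each read pair was counted by both its mates.

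Among genes of cholesterol uptake and transport, 2 of 7 tested were lower and 3 higher in the 3 libraries without overlap, and with total counts as the scale 1 was lower and 1 higher. Stard4, a cholesterol carrier of the cytosol, was at 13.5 and 12.6 CPM in KHT 1 and KHT 2, 14.3 CPM in IPT 1 and 24.4 to 33.2 CPM in the other 5. Npc1, which carries cholesterol out of lysosomes, was at 27.4 to 31.6 CPM against 10.98 to 14.7 CPM. Soat1, which esterifies cholesterol, was at 67.9 to 75.6 CPM against 50.3 to 59.9 CPM, and Scarb1, the HDL receptor, at 22.6 to 27.8 CPM against 9.72 to 18.8 CPM. None of the 7 was called for KHT with IPT. For KHT with NEG, 5 were higher and none lower (median 2.38), among them Soat1 (2.38, SE 0.70, edgeR adjusted p = 0.0169), whose call ended without KHT 1, KHT 2 and IPT 1 (2.16, edgeR adjusted p = 0.0825). Stard4 did not pass (1.77, edgeR adjusted p = 0.0724).

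The isoprenoid branches, which use farnesyl diphosphate for other products, had 9 genes tested, and all 9 overlapped between the 2 sets of libraries. Ggps1, which makes geranylgeranyl diphosphate, ran from 12.9 to 18.7 CPM in the 3 libraries and from 11.5 to 19.1 CPM in the other 5. Rabggtb, a prenyltransferase subunit, stood at 34.9 ± 1.57 CPM in KHT and 39.5 ± 4.42 CPM in IPT (SD, n = 4 each). Of these 9, none was called for KHT with IPT, and 3 were higher and none lower for KHT with NEG. Without KHT 1, KHT 2 and IPT 1 the count fell to 1, beside 21.7% of all genes in that fit. The median of the 9 was 1.99, or 1.13 when genes without NEG counts are put at their lower bound. For this second value too, no median of the same kind over all genes was computed. Ggps1, at 0 in NEG, was higher in KHT by at least 3.98-fold with the same floor and its limits (edgeR adjusted p = 0.00495).

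Fatty acid synthesis, which SREBP-1 drives, had 11 genes tested, of which 6 were lower and 3 higher in the 3 libraries without overlap. With total counts as the scale 2 were lower, Fasn and Elovl5, and none was higher. Fasn, fatty acid synthase, was at 119 to 138 CPM against 188 to 254 CPM. Elovl5, an elongase, was at 33.2 to 34.5 CPM against 48.8 to 65.4 CPM, and Fads2, a desaturase, at 64.1 to 69.2 CPM against 74.8 to 107 CPM. Scd2, another desaturase, overlapped. None of the 11 was called for KHT with IPT. For KHT with NEG, 6 were higher and none lower (median 2.17), with Fasn at 3.03 (SE 0.91, edgeR adjusted p = 0.0180). The count fell to 2 without KHT 1, KHT 2 and IPT 1, beside 21.7% of all genes in that fit. The 12 stress genes, in which the division was seen, were all higher in the same 3 libraries, where 14.6% of all genes tested were. Atf4 was at 192, 164 and 182 CPM in KHT 1, KHT 2 and IPT 1 and at 95.2 to 110.3 CPM in the other 5. The summed Leydig markers were at 388 to 396 CPM against 572 to 708 CPM, but the 12 markers were divided. Without overlap 7 were lower and 1 higher, and 4 overlapped, beside 13.9% of all genes tested lower and 14.6% higher. These markers were not counted with total counts as the scale. The part of these in the members' levels was not tested.

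Outside the lists, 2565 named genes averaging 20 CPM or more over KHT and IPT were ranked by Pearson's r with the members' mean standardised profile over the 8 libraries. The 8 libraries fall into the 2 sets described, so r mostly measures that division and is given without a p. The closest were Stip1 (r = 0.991), Hspa8 (0.991), Vcp (0.989), Eci2 (0.987), Dnajb4 (0.985), Actg1 (0.985), Tubb4b (0.985) and Abhd2 (0.983). Stip1, a co-chaperone, was at 49.6, 47.9 and 53.4 CPM in KHT 1, KHT 2 and IPT 1 and at 102 to 106 CPM in the other 5. Hspa8, the constitutive Hsp70 chaperone, was at 148 to 179 CPM in the 3 libraries and 471 to 510 CPM in the other 5. Among the members themselves r was highest for Idi1 (0.994), Insig1 (0.991) and Cyp51 (0.990) and lowest for Fdft1 (0.806) and Fdps (0.764), each of which is part of the profile.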

How the data were processed

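RNA sequencing libraries of KHT pull-downs, negative controls and input RNA of MA-10 cells were analysed from the authors' deposited table of estimated counts per gene (expected counts, unscaled). The submitters' processing notes name kallisto, DESeq2, GRCm38 and mm10 without versions or roles. Values were already whole numbers. Symbols matched 27004 of 27071 identifiers, and positions came from a RefSeq table of the same build, GRCm38.p6. NEG 2 (0 counts) was left out, so 12 libraries were fitted. Genes were tested with edgeR 4.0.16 (R 4.3.3; TMM, filterByExpr, robust glmQLFit and glmQLFTest) with the 3 groups fitted together, two-sided, with Benjamini-Hochberg adjustment over 10714 genes and a threshold of 0.05. The fit was tested on simulated data. Alternatives included DESeq2 1.42.0, limma voom 3.58.1, other scalings and filters, a replicate block and leaving out libraries. The 9 dominant features each held at least 0.5% of pooled NEG counts. The members, the lists and the division of libraries were chosen with earlier results of these data known. Named genes were the 8 members, Srebf2, and up to 4 genes of each list with the smallest p for KHT with IPT and 2 for KHT with NEG, of which the text names some. Part of the listed genes is not reported here and enters no list count. Atf4, Ctsb, Tm7sf2, the overlapping noncoding genes and the genes of most alike pattern were named besides, Atf4 and Tm7sf2 after their values were seen. No pair of replicates agreed within sampling noise.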

Additional observations from a re-analysis of the deposited data

Results flagged for a closer look

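In groups of 4 libraries, 27 sets of values (the 8 members and Srebf2 in each group) were examined for a library far from the other 3, and 6 were found. The rule takes about 1 in 20 as the rate by chance for independent values. That rate does not carry over to sparse counts, where 1 library with counts beside 0 in the others always gives the widest gap. In all 6 the library was NEG 5, so the 6 are not independent and no excess over chance is read from them. In NEG 5, Fdft1 was at 24.5 CPM, Sqle at 28.6, Lss at 16.3 and Srebf2 at 65.4 CPM, with 0 in the other 3 NEG libraries. Hmgcs1 was at 114 CPM and Cyp51 at 73.5 CPM in NEG 5, with at most 12.1 CPM in the others.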

How the results depend on the processing

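The count of members higher in KHT than in NEG (3) became 5 in DESeq2 and 8 with total counts, and ranged from 1 to 8 when 1 library was left out. The count lower in NEG than in IPT (3) became 7 in DESeq2, 8 with total counts and 6 without the filter, and ranged from 1 to 8. For these DESeq2, total count and unfiltered fits of NEG with IPT, no share of all genes is given. Their counts are therefore not read as particular to the members. For KHT with NEG under total counts, all tested genes were higher among other cholesterol enzymes (13, from 3), sterol sensing (20), uptake and transport (7), isoprenoid branches (9) and fatty acid synthesis (11). Limma voom gave 5 for other cholesterol enzymes, and DESeq2 gave 5 for isoprenoid branches and 10 for fatty acid synthesis. Of all genes, 97.3% were called higher with total counts and 43.2% in DESeq2. Without KHT 1, KHT 2 and IPT 1 the counts were 7 for sterol sensing, 1 for isoprenoid branches and 2 for fatty acid synthesis. That fit has 2 KHT libraries in place of 4, and 21.7% of all genes in it were called higher. Fdft1 lost its KHT with NEG call in edgeR with counts outside the dominant features as library size (adjusted p = 0.0695), with a mean of at least 10 CPM (0.0537), in the 2 groups alone (0.0644) and without NEG 1 (0.114), NEG 3 (0.0909), NEG 4 (0.0884), KHT 3 (0.0597) or KHT 4 (0.0570), with fold changes of 1.55 to 1.94 beside 2.01. Lss lost it without NEG 1 (0.0751), NEG 3 (0.0568) or NEG 4 (0.0531), with 2.02 to 2.22 beside 2.48. Sqle kept it in all 23 settings. The cause of these changes was not tested.

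Correlations of deviations from group means between libraries of the same number ran from -0.33 to 0.22 for KHT with IPT. The division of KHT 1, KHT 2 and IPT 1 enters these deviations, with 0.52 for KHT 2 with IPT 1. They therefore cannot settle whether replicate numbers pair the libraries. With the replicate block, 8 members were called for KHT with NEG and 8 for NEG with IPT. For KHT with NEG, 9 other cholesterol enzymes, 6 isoprenoid genes and 11 fatty acid genes were called. No share of all genes stands beside these counts, so they are not read as particular to the members or lists. NEG 5 alone has its number, so the block fits it by itself.

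Fold changes of KHT over IPT, none called, changed sign without KHT 1, KHT 2 and IPT 1 to 0.0165 for Idi1, 0.11 for Fdft1, 0.0617 for Sqle, 0.0790 for Lss, 0.12 for Cyp51 and 0.16 for Insig1. With 1 library left out at a time they ranged from -0.19 to 0.0654 for Fdft1, -0.26 to 0.16 for Lss, -0.38 to 0.0597 for Cyp51 and -0.40 to 0.0742 for Insig1, and the other 4 kept their sign. Members' fold changes of KHT over NEG and NEG over IPT kept their sign in all settings. NEG depth outside the dominant features, 31318 to 49062 counts, limits every comparison with NEG.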
